A study of Mus musculus with 4 samples.

Results

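The cells described here are neutrophils of mouse lung tumors whose transcripts were rich in Ccl3 and Ccl4, which encode the chemokines CCL3 and CCL4. They were chosen from counts of unique molecular identifiers (UMIs), each of which marks 1 captured RNA molecule. A cell of a tumor library was taken if it had no fewer than 200 genes, no more than 10% mitochondrial UMIs and at least 5% of its UMIs from 10 neutrophil genes, Csf3r, Cxcr2, S100a8, S100a9, Il1r2, Mmp8, Mmp9, Retnlg, G0s2 and Hdc. It also had to hold fewer than 10 UMIs of Camp, Ngp and Ltf, genes of the specific granules that are transcribed in immature neutrophils, and Ccl3 and Ccl4 had to reach 1% of its UMIs together. In all, 515 cells met the rule, of 1140 tumor neutrophils, 3376 tumor cells and 13344 cells of the series that passed the filters on genes and mitochondrial UMIs. They are called chemokine-high neutrophils below, and the other 625 tumor neutrophils are those below the limit.

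The libraries came from live CD45-positive cells, that is leukocytes, sorted by flow cytometry from digested lungs of C57BL/6 mice on day 14. The mice were wild type (WT) or lacked Rab37 (Rab37 KO), a small GTPase of the family that directs vesicle traffic. The lung tumor groups had been injected with the mouse lung carcinoma line LLC, and the normal lung groups with Matrigel, a gel matrix, alone. Each of the 4 groups (normal WT, normal Rab37 KO, the WT tumor and the Rab37 KO tumor) has 1 library, so no spread between replicates exists and no test between groups was made. The sources used here do not give the animals' age or sex or how many animals a library holds, and the tissue was labelled lung in all 4 groups.

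Neutrophils are short-lived phagocytes that leave the bone marrow and enter tissue along gradients of CXC chemokines read by the receptor CXCR2. CCL3 and CCL4 (also called MIP-1 alpha and MIP-1 beta) are secreted proteins that bind receptors such as CCR1 on monocytes, lymphocytes and granulocytes and draw these cells into inflamed tissue. Tumor neutrophils are known to differ from those of blood and healthy lung in their survival genes, their glycolysis and their ligands for T cells.

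Ccl3 (ENSMUSG00000000982) lies on chromosome 11 from 83647844 to 83649355, minus strand, and Ccl4 (ENSMUSG00000018930) lies nearby from 83662584 to 83664683, plus strand (mm10). Cxcl2, at 90903871 to 90905938, and Cxcl3, at 90786103 to 90789600, both lie on the plus strand of chromosome 5 and were higher in the chemokine-high neutrophils. The 200 bases that end 51 bases before the start of 3 of these genes are printed from RefSeq (GRCm38.p6), because the transcripts varied together from cell to cell. The start used for these windows is that of RefSeq, which differs from the coordinates given above. The 4 genes Ccl3, Ccl4, Cxcl2 and Cxcl3 and 10 further genes that were higher in these cells were looked up, and 13 of the 14 had an entry. Capitals mark a match to the NF-kB motif, read as GGGA, any base and TTTCC, or as GGGAA and TTCCC, without gaps and on both strands, which 107 of 32851 windows of the same kind hold (0.326%).

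Cxcl2, chr5:90903649-90903848, plus strand: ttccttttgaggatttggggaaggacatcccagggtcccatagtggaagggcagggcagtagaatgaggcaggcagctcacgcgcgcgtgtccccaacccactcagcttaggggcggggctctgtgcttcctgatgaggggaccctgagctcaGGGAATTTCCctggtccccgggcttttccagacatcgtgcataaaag
Cxcl3, chr5:90785851-90786050, plus strand: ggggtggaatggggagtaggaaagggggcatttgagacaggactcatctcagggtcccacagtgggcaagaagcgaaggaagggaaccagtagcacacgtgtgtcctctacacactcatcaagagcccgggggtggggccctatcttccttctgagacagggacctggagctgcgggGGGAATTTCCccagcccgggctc
Ccl3, chr11:83649429-83649628, minus strand: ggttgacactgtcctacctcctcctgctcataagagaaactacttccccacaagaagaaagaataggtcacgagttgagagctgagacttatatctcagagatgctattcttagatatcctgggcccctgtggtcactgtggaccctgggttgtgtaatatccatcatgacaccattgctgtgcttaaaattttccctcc

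The match begins 97 bases before the RefSeq start of Cxcl2 and 73 bases before that of Cxcl3. Both chemokine genes held these letters, while the window of Ccl3 did not, and 2 of the 18 windows of the 13 genes held a match in all. The letters ACGTG or GCGTG, the core of the motif read by hypoxia-inducible factors, occurred on either strand in 10 of the 18 windows and in 10374 of the 32851 (31.6%). A match says only that the letters are there.

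Tumor WT gave 37 of the chemokine-high neutrophils and the Rab37 KO tumor gave 478. Of the tumor neutrophils, 23.6% were chemokine-high in the WT tumor (37 of 157, 95% interval 17.2 to 31.0) and 48.6% in the Rab37 KO tumor (478 of 983, 45.5 to 51.8). The same limits also picked 359 of the 929 neutrophils of normal lung, or 43.2% in normal WT (163 of 377, 38.2 to 48.4) and 35.5% in normal Rab37 KO (196 of 552, 31.5 to 39.7). A share of Ccl3 and Ccl4 above the limit was thus met in neutrophils of all 4 libraries and was least frequent in the WT tumor. With every cell thinned to 1000 UMIs, an alternative chosen after seeing the data, the shares were 21.2% (35 of 165), 47.6% (508 of 1067), 45.3% (169 of 373) and 37.8% (208 of 551) in the order WT tumor, Rab37 KO tumor, normal WT and normal Rab37 KO. Of all cells passing the filters, the chemokine-high neutrophils were 5.72% in the WT tumor and 17.5% in the Rab37 KO tumor. All intervals here are exact 95% intervals and cover counting error only, not differences between animals.

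**Figure D1:**
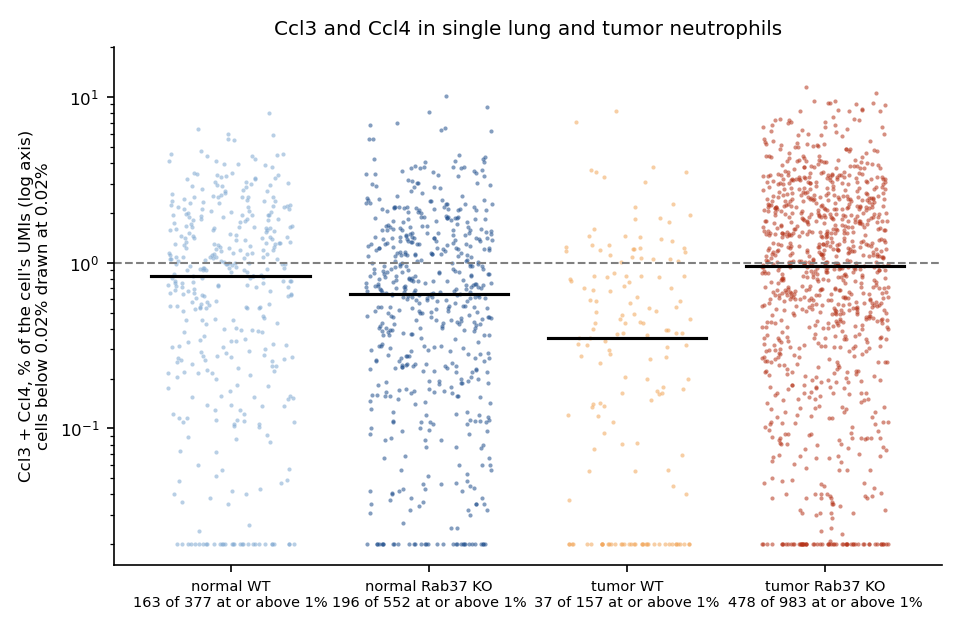
Share of a cell's UMIs from Ccl3 and Ccl4 (percent, log axis) for each neutrophil of the 4 libraries, with the median as a black line and the limit of 1% as a dashed line. Cells under 0.02% are drawn at 0.02%. The chemokine-high neutrophils lie on and above the dashed line, 37 in the WT tumor and 478 in the Rab37 KO tumor, and normal lung holds 359 neutrophils at that height.

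The libraries differed in size, and this bears on every comparison. The filters left 5242, 4726, 647 and 2729 cells in normal WT, normal Rab37 KO, WT tumor and Rab37 KO tumor, with 36525943, 34750859, 5213826 and 30120672 UMIs. The chemokine-high neutrophils themselves held 94632 UMIs in the WT tumor and 2855910 in the Rab37 KO tumor, so that 20 UMIs were 211 CPM (UMIs per 1000000 UMIs of the group of cells) in the first and 7.003 CPM in the second. Over all passing cells Rab37 stood at 4.79 CPM in the WT tumor and 0.266 CPM in the Rab37 KO tumor, as labelled, but the chemokine-high neutrophils held only 0 and 2 Rab37 UMIs. Which part of Rab37 was deleted is not known here, and tags from outside that part would check nothing. The chemokine-high cells held 13 UMIs of Xist, transcribed in females, and 0 of Y-linked genes in the WT tumor, and 0 and 529 in the Rab37 KO tumor, so genotype, animal and sex cannot be told apart. The tumor libraries shared 1 cell barcode, and it was not among the chemokine-high neutrophils.

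The neutrophil identity of the cells was checked with markers that the rule did not use. The 22 such markers, among them the receptors Fpr1 and Trem1 and the surface protein Ly6g, summed to 27221 CPM in the WT tumor and 27843 CPM in the Rab37 KO tumor. Neutrophils below the limit had sums of 29650 and 27690 CPM, and those of normal lung 22429 and 23661 CPM. Without foreign transcripts the sums were 26226 CPM against 36651 CPM below the limit in the WT tumor and 30113 against 37752 CPM in the Rab37 KO tumor, with 10 of 20 and 6 of 22 of the markers at least 1.5-fold lower and 3 and 4 higher. Neutrophil markers outside the rule were thus present, but lower than below the limit in these cells, and Ly6g was among the lower ones. The markers that define eosinophils summed to 0 and 3.85 CPM, T cell markers to 0 (7 of 7 at 0) and 25.9 CPM, and B cell markers to 0 and 38.2 CPM, in the WT tumor and Rab37 KO tumor.

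Transcripts of other cells were found as well. The sum of 12 macrophage markers was 307 CPM in the WT tumor, where 6 of the 12 were at 0, and 613 CPM in the Rab37 KO tumor. Below the limit it was 1423 and 2892 CPM, and in normal lung 674 and 1003 CPM. Macrophage transcripts were therefore lower in the chemokine-high neutrophils than in the other tumor neutrophils of the same library, and several comparisons move with them. Cells with at least 2 UMIs of macrophage, T cell, B cell, platelet or LLC markers were 6 of 37 (16.2%) and 214 of 478 (44.8%), against 44 of 120 (36.7%) and 251 of 505 (49.7%) below the limit. Leaving these cells out kept 31 and 264 chemokine-high neutrophils and 76 and 254 below the limit. Values from these remaining cells are given, for short, as values without foreign transcripts. The name stands for cells left out, and no transcripts were removed from the cells kept. Macrophage markers still summed to 178 CPM in the remaining chemokine-high cells of the WT tumor and 86.6 CPM in those of the Rab37 KO tumor. A fixed limit of 2 UMIs is also met more easily by cells with more UMIs. Erythroid markers summed to 31.7 and 783 CPM, mostly from 1 cell of the Rab37 KO tumor, and platelet markers to 10.6 and 224 CPM, against 47.2 and 971 CPM below the limit.

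Depth of the chemokine-high cells was close to that of the other tumor neutrophils. The chemokine-high cells had fewer genes in the WT tumor and a higher share of mitochondrial UMIs in the Rab37 KO tumor. The median was 2154 UMIs in the WT tumor (range 740 to 7873) and 3740 in the Rab37 KO tumor (704 to 44476), against 2500 and 3931 below the limit. The median number of genes was 690 and 1030, against 880.5 and 1107 below the limit. Mitochondrial UMIs took a median of 0.518% and 1.88%, against 0.710% and 1.41% below the limit. Scrublet, a caller of doublets, marked none of the 515 cells, but it marked only 0.464% and 0.147% of the cells of the tumor libraries.

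Ccl3 and Ccl4 chose the cells, and their values are a description. A chemokine-high neutrophil held a median of 20 Ccl3 UMIs in the WT tumor (highest 82) and 43.5 in the Rab37 KO tumor (highest 405). For Ccl4 the medians were 16 (highest 109) and 62 (highest 394). Together both genes took a median of 1.38% of a cell's UMIs in the WT tumor (1.01% to 8.19%) and 2.19% in the Rab37 KO tumor (1.00% to 11.4%). Summed over cells, Ccl3 stood at 8042 CPM (7480 to 8634) in the WT tumor and 10170 CPM (10053 to 10287) in the Rab37 KO tumor, and Ccl4 at 11191 CPM (10527 to 11886) and 14017 CPM (13880 to 14155). Cells that met the limit in normal lung had Ccl3 at 9277 and 8477 CPM and Ccl4 at 11848 and 13294 CPM, within the range of the tumor cells or close to it.

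Most chemokine-high cells held both transcripts, in varying proportion. UMIs of both genes were found in 32 of the 37 cells of the WT tumor and 447 of the 478 of the Rab37 KO tumor. Ccl3 was not counted in 2 and 18 cells and Ccl4 in 3 and 13. Ccl3 made up a median of 40.7% of the pair in the WT tumor (quartiles 24.6% to 61.8%) and 39.7% in the Rab37 KO tumor (25.6% to 53.1%). Across all tumor neutrophils the Spearman correlation of Ccl3 with Ccl4 was 0.40 in the WT tumor (157 cells) and 0.53 in the Rab37 KO tumor (983 cells), and in normal lung 0.25 and 0.24. Within the chemokine-high cells alone it was -0.30 (37 cells) and 0.16 (478 cells). These cells share a library and differ in depth, so the values describe only how the counts went together.

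The limit has no gap around it. Cells with 0.8% to 1% held medians of 6 Ccl3 and 12 Ccl4 UMIs in the WT tumor (7 cells) and 13 and 25.5 in the Rab37 KO tumor (66 cells). Cells with 1% to 1.2% held 13 and 12.5 in the WT tumor (10 cells) and 16 and 29.5 in the Rab37 KO tumor (58 cells). Levels just inside and just outside thus followed on each other, and the chemokine-high neutrophils are the upper part of a range. At the other limit, 6 and 61 cells past the chemokine limit had 4% to 5% neutrophil transcripts and were not taken, and 2 and 39 had 5% to 6% and were. A further 18 cells of the Rab37 KO tumor met the other limits but held 10 or more Camp, Ngp and Ltf UMIs.

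The share of all Ccl3 and Ccl4 UMIs in these cells is set in part by the rule and is given as a description. They held 25.4% of all Ccl3 UMIs of the WT tumor (23.9 to 27.0) and 37.7% of those of the Rab37 KO tumor (37.4 to 38.1). For Ccl4 the shares were 29.0% (27.6 to 30.5) and 43.5% (43.2 to 43.9). Cells outside the neutrophils held 61.6% and 54.6% of Ccl3 and 53.0% and 48.0% of Ccl4, more than the chemokine-high neutrophils did. Normal lung neutrophils past the same limit held 18.5% and 24.1% of Ccl3 and 22.9% and 35.8% of Ccl4.

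Beside Ccl3 and Ccl4, the chemokine-high neutrophils held more Cxcl3, Cxcl2, Il1rn, Cd274 and Hilpda than the tumor neutrophils below the limit, in both tumor libraries. They also held more of several genes of glycolysis and of the response to low oxygen (Pfkp, Egln3, Fam162a). They held less of Lyz2, of Ly6g and of macrophage transcripts, and less of MHC class II genes, whose direction turned in the Rab37 KO tumor without foreign transcripts. This comparison is within a library, so that genotype, sex and preparation were held, but the cells were split by their own counts. Of 2536 genes outside the rule with at least 20 UMIs over both groups in both libraries, 86 were at least 1.5-fold higher in both (3.39%) and 323 at least 1.5-fold lower in both (12.7%). Intervals excluded a ratio of 1 in both libraries for 66 and 175 of them.

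In single libraries, where 1.5-fold is reached more easily, 363 of 2538 genes were higher in the WT tumor (14.3%) and 789 lower (31.1%). In the Rab37 KO tumor 412 of 7924 were higher (5.20%) and 2853 lower (36.0%). The median log2 ratio over all genes was -0.18 in the WT tumor and -0.37 in the Rab37 KO tumor. The ratios of single genes below are to be read against these medians. The 86 genes higher in both were 23.7% of those higher in the WT tumor and 68.3% of those higher in the Rab37 KO tumor among the genes measured in both.

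Among the CXC chemokines, the ligands of CXCR2 that attract further neutrophils, Cxcl3 and Cxcl2 were higher in both tumor libraries. Cxcl3 stood at 626 CPM below the limit and 6774 CPM in chemokine-high cells of the WT tumor, and at 1605 and 8554 CPM in the Rab37 KO tumor. The ratios were 10.8 (9.34 to 12.6) and 5.33 (5.17 to 5.49), and 8.13 and 10.9 without foreign transcripts. After thinning, a Cxcl3 UMI was found in 61.1% of the chemokine-high cells of the WT tumor (36 cells, 67.6% unthinned) and 67.4% in the Rab37 KO tumor (475 cells, 73.2% unthinned), against 15.4% and 26.5% below the limit. B cells, chosen by their own markers to gauge free RNA, held Cxcl3 in 1.64% of 61 cells (median depth 2992 UMIs) and 7.69% of 78 cells (3510). Cxcl2, whose promoter is printed above beside that of Cxcl3, was at 28607 and 60519 CPM in the WT tumor and 29488 and 56236 CPM in the Rab37 KO tumor, ratios of 2.12 (2.05 to 2.18) and 1.91 (1.89 to 1.92). Cxcl1 was not alike in the 2 libraries: 5 and 21 UMIs in the WT tumor, a ratio of 17.9 (6.56 to 60.7) with 71.4% of the UMIs in 1 cell, and 397 and 345 CPM in the Rab37 KO tumor, a ratio of 0.870. Without foreign transcripts Cxcl1 was higher in both, with ratios of 25.2 (6.09 to 224, from 2 UMIs below the limit) and 4.91 (3.68 to 6.67).

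Of 6 CC chemokines measured in both libraries 3 were higher in both and 0 lower, and these were Ccl3 and Ccl4, which the rule used, and Ccl6. Ccl6, a chemokine of myeloid cells, was at 976 and 1701 CPM in the WT tumor and 2021 and 3401 CPM in the Rab37 KO tumor, ratios of 1.74 (1.44 to 2.10) and 1.68 (1.63 to 1.74). Ccl2, which attracts monocytes, was at 91.9 and 84.5 CPM and at 335 and 334 CPM. Ccl9 was at 406 CPM below the limit and 246 CPM in the chemokine-high cells of the Rab37 KO tumor, a ratio of 0.606. Without foreign transcripts the ratio for Ccl9 was 3.61, so its direction depended on those cells.

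Ccr1 encodes a receptor for these chemokines. Ccr1 was at 666 and 1205 CPM in the WT tumor and 921 and 1479 CPM in the Rab37 KO tumor, ratios of 1.81 (1.44 to 2.26) and 1.61 (1.53 to 1.68). The scavenging receptor Ackr2 had no UMI in these cells. Without foreign transcripts the ratios of Ccr1 were 1.595 and 1.43, under 1.5-fold in the Rab37 KO tumor.

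Il1rn, which encodes the interleukin-1 receptor antagonist, was the cytokine gene with the largest difference. It was at 189 CPM below the limit and 1648 CPM in chemokine-high cells of the WT tumor, and at 315 and 1061 CPM in the Rab37 KO tumor, ratios of 8.74 (6.60 to 11.6) and 3.37 (3.13 to 3.62). Il1rn UMIs were found after thinning in 58.3% and 46.7% of the chemokine-high cells, in 18.8% and 16.5% below the limit and in 3.28% and 3.85% of B cells. The agonist Il1b was at 8003 and 11043 CPM in the WT tumor and 8475 and 11368 CPM in the Rab37 KO tumor, ratios of 1.38 (1.29 to 1.48) and 1.34 (1.32 to 1.36), under the 1.5-fold limit. Both the agonist and its antagonist were thus higher, the antagonist by the larger ratio.

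In the list of interleukin-1 and inflammatory cytokines, 11 members were measured in both libraries. Of these 3 were at least 1.5-fold higher in both and 0 lower, against 3.39% and 12.7% over all genes. The list's median log2 ratio was 0.60 in the WT tumor and 0.36 in the Rab37 KO tumor. Besides Il1rn the higher members of the list were Il1f9 and Csf1. Il1f9, an interleukin-36 ligand, had ratios of 2.35 (1.58 to 3.45) and 1.91 (1.75 to 2.08). Csf1, the growth factor of macrophages, had 3.88 (2.61 to 5.75) and 1.56 (1.34 to 1.81). A single cell held 38.5% of the Csf1 UMIs of the WT tumor. Ptgs2, which encodes the inducible cyclooxygenase, was at 643 and 1416 CPM in the WT tumor and at 1477 and 2181 CPM in the Rab37 KO tumor, just under the limit in the latter. Tnf had ratios of 1.34 (0.613 to 2.69) and 1.29, and Osm of 1.93 and 1.13. Il6 had 0 and 6 UMIs and Il10 had 3 and 7 in the chemokine-high cells, too few for a comparison.

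Genes of low oxygen and glycolysis were higher in the chemokine-high cells for part of the list. Of 28 members measured in both libraries, 6 were higher in both and 0 lower, against 3.39% and 12.7% over all genes. The list's median log2 ratio was 0.60 in the WT tumor and 0.25 in the Rab37 KO tumor, against -0.18 and -0.37 for all genes. Without foreign transcripts 8 of 25 members were higher in both libraries and 1 lower. Hilpda, which encodes a lipid droplet protein induced by low oxygen, was at 156 and 972 CPM in the WT tumor and 334 and 783 CPM in the Rab37 KO tumor, ratios of 6.22 (4.46 to 8.70) and 2.35 (2.18 to 2.53). Pfkp, the platelet form of phosphofructokinase, had ratios of 2.65 (1.501 to 4.57) and 2.34 (2.09 to 2.62). Egln3, a prolyl hydroxylase that marks hypoxia-inducible factors for degradation, had 4.68 (2.44 to 9.04) and 2.28 (2.02 to 2.58).

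Of the tumor neutrophil list, genes that other work ties to neutrophils of tumors, 10 of 21 were higher in both libraries and 0 lower. Over all genes 3.39% were higher in both and 12.7% lower. The list's median log2 ratio was 0.75 in the WT tumor and 0.57 in the Rab37 KO tumor. Without foreign transcripts 6 of 20 were higher in both. Cd274, which encodes PD-L1, the ligand that restrains T cells through PD-1, was at 57.1 and 222 CPM in the WT tumor and 86.6 and 211 CPM in the Rab37 KO tumor. Its ratios were 3.89 (2.04 to 7.34) and 2.43 (2.11 to 2.82), and 5.07 and 4.55 without foreign transcripts. Hcar2, the receptor for hydroxybutyrate, had ratios of 2.52 and 1.69.

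Spp1, which encodes osteopontin, was at 233 and 518 CPM in the WT tumor and 772 and 1677 CPM in the Rab37 KO tumor, ratios of 2.22 (1.54 to 3.17) and 2.17 (2.07 to 2.28). In the WT tumor only 7 of the 37 chemokine-high cells held Spp1, and 1 of them held 36.7% of its UMIs. With neutrophils taken from 2.5% of neutrophil transcripts, the log2 ratio of Spp1 in the WT tumor was -1.45, the opposite direction. Siglecf, a marker of a subset of neutrophils in lung tumors, was almost absent, at 9.93 and 0 CPM in the WT tumor and 12.6 and 9.45 CPM in the Rab37 KO tumor.

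Among other genes with large ratios in both libraries were Basp1, a membrane-bound signalling protein, Upp1, the uridine phosphorylase, and Arid5b, a transcriptional coregulator. Basp1 had ratios of 3.38 (2.79 to 4.10) and 2.25 (2.15 to 2.35), Upp1 of 2.19 (1.53 to 3.104) and 2.78 (2.57 to 3.01), and Arid5b of 3.75 and 2.09. Ier3, an early response gene of NF-kB signalling, was at 2592 and 6573 CPM in the WT tumor and 3480 and 7059 CPM in the Rab37 KO tumor, ratios of 2.54 (2.29 to 2.80) and 2.03 (1.98 to 2.08). Of 13 members of the NF-kB feedback list 2 were higher in both libraries, Ier3 and Cflar, an inhibitor of caspase 8, against 3.39% over all genes. Without foreign transcripts 3 of 9 were higher in both and 0 lower. Of 14 regulators of apoptosis 3 were higher in both, among them the survival gene Bcl2a1b with 1.83 (1.16 to 2.83) and 2.46 (2.22 to 2.74). Of 15 Rab and exocytosis genes 1 was higher in both, Rab44, with 2.25 (1.198 to 4.10) and 2.42 (2.08 to 2.81).

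**Figure D2:**
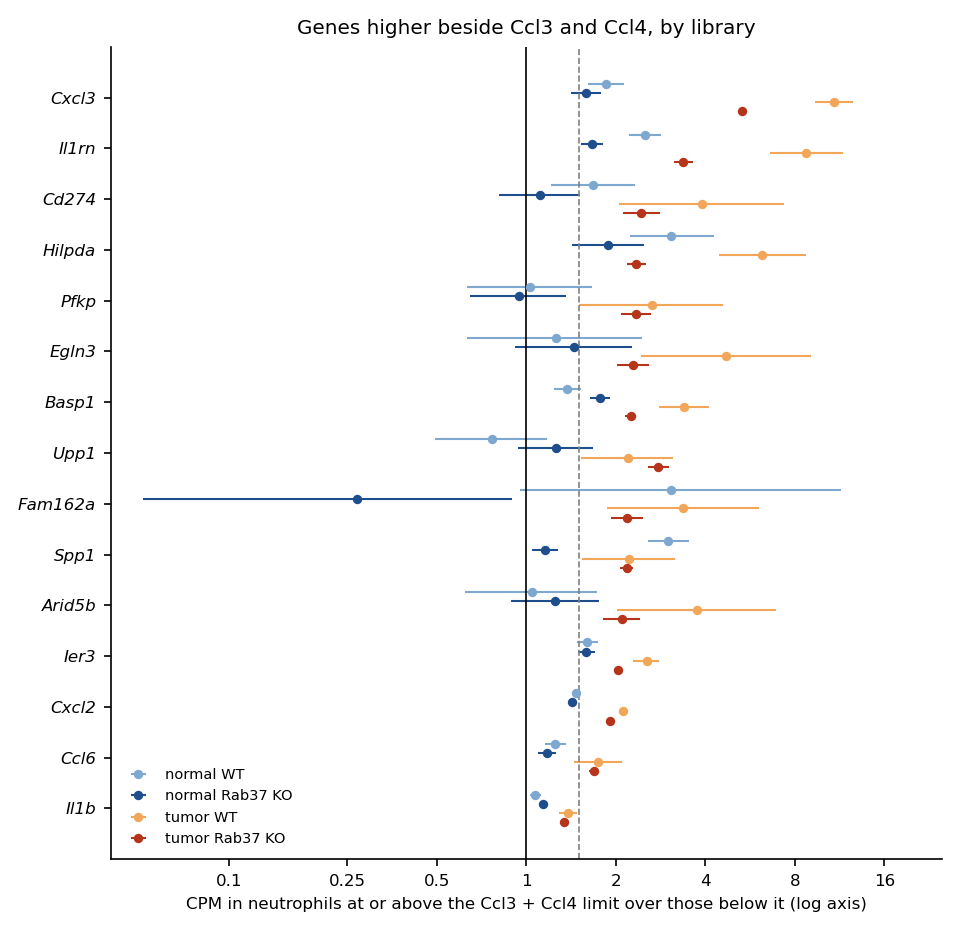
Ratio of summed CPM (log axis) between neutrophils at or above and below the 1% limit for 15 genes in the 4 libraries, with 95% counting intervals and lines at 1 and 1.5. In both tumor libraries Cxcl3 lies farthest to the right together with Il1rn, at 10.8 and 8.74 in the WT tumor, while in normal lung the ratio for Cxcl3 is 1.86 and 1.59.

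Genes lower in the chemokine-high neutrophils included lysozyme and markers of other cells. Lyz2, the lysozyme of myeloid cells, was at 3466 and 888 CPM in the WT tumor and 2668 and 743 CPM in the Rab37 KO tumor, that is 3.91-fold and 3.59-fold lower. Without foreign transcripts the ratios for Lyz2 were 0.661 and 0.577, so the difference was smaller there. Ly6g, the surface marker of mature mouse neutrophils, was at 171 and 63.4 CPM in the WT tumor and 174 and 87.9 CPM in the Rab37 KO tumor, 2.70-fold and 1.98-fold lower. Without foreign transcripts the ratios for Ly6g were 0.246 and 0.303. The WT value of Ly6g rests on 6 UMIs.

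Apoe and C1qb, genes of macrophages, were among the lower genes. Apoe was 4.22-fold and 5.01-fold lower, with a ratio of 1.59 and 1.03 without foreign transcripts, although Apoe is itself among the markers by which those cells were left out. C1qb was at 119 and 0 CPM in the WT tumor, at least 3.76-fold lower, and 9.54-fold lower in the Rab37 KO tumor. Of the MHC class II genes 5 of 5 were lower in both libraries, and of the heat shock genes 5 of 9. Of lysosome genes 5 of 20 were lower in both and of granule proteins 4 of 11, with 0 higher in each list. Over all genes 12.7% were lower in both and 3.39% higher. In single libraries, before cells were left out, 31.1% of all genes were lower in the WT tumor and 36.0% in the Rab37 KO tumor. Higher were 14.3% and 5.20%. The macrophage sum given above was lower too. Without foreign transcripts, in the Rab37 KO tumor, 3 of 4 MHC class II genes were higher and 0 lower (median log2 ratio 0.87), 2 of 10 heat shock genes higher and 1 lower (0.19), and 2 of 21 lysosome genes higher and 1 lower (0.07). In the WT tumor 6 of 14 lysosome genes were then higher and 0 lower, 1 of 5 heat shock genes was higher and 2 lower, and 0 MHC class II genes had enough UMIs. With cells of at least 10% neutrophil transcripts the median of the MHC class II list in the Rab37 KO tumor was 1.53 on the log2 scale, the opposite direction.

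The chemokine-high neutrophils varied among themselves along the same genes. In the Rab37 KO tumor the 478 cells were split by their share of Ccl3 and Ccl4 into 208 cells with 1% to 2%, 189 with 2% to 4% and 81 with 4% or more. Cxcl3 was at 5500, 10048 and 18018 CPM in that order, after 563 and 2173 CPM in the 217 cells under 0.25% and the 288 cells of 0.25% to 1%. Cxcl2 was at 46438, 60041 and 89744 CPM, and Il1rn at 751, 1288 and 1777 CPM. Each of these genes was higher in every step of the chemokine share, within the chemokine-high cells as well as across the limit.

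Other genes followed the same order or its reverse. Ier3 went from 5836 to 7719 and 10650 CPM over the 3 steps, Basp1 from 1662 to 2452 and 3551 CPM, and Egln3 from 223 to 303 and 484 CPM. Hilpda was at 577, 1046 and 896 CPM and was not higher still beyond 4%. Lyz2 went down from 944 to 583 and 319 CPM, and Ly6g from 133 to 44.6 and 15.5 CPM. S100a8, a gene of the rule, stood at 46464, 40324 and 38437 CPM. Tumor WT held 27, 8 and 2 cells in these steps, too few to follow.

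**Figure D3:**
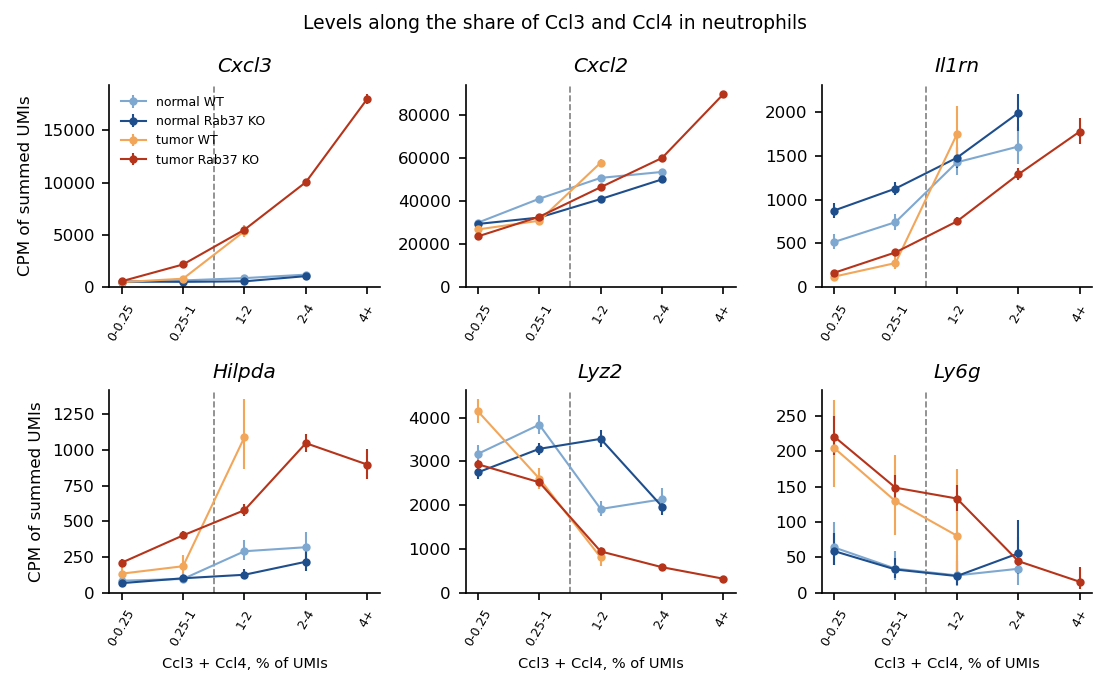
Level (CPM of summed UMIs) of Cxcl3, Cxcl2, Il1rn, Hilpda, Lyz2 and Ly6g in neutrophils grouped by their share of Ccl3 and Ccl4, for the 4 libraries, with 95% counting intervals, groups of at least 20 cells and a dashed line at the 1% limit. In the Rab37 KO tumor Cxcl3 reaches 18018 CPM in the highest group and Lyz2 is at 319 CPM there.

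Ranked over 1557 genes by Spearman correlation with Ccl3 and Ccl4 over thinned tumor neutrophils, taking the lower of both libraries, the most alike were Cxcl3, Il1rn, Basp1, Cxcl2, Fth1, Srgn, Thbs1 and Cd14. Cxcl3 had 0.35 in the WT tumor (153 cells) and 0.56 in the Rab37 KO tumor (977 cells), Il1rn 0.34 and 0.39, and Cxcl2 0.31 and 0.51. The most opposite were led by Tmsb4x (-0.31 and -0.47) and Actb (-0.31 and -0.36), genes of the actin cytoskeleton. Cells of a library share free RNA, and these values describe the counts only.

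In normal lung, a comparison added after the data had been seen, ratios between neutrophils past the same limit and those below it were smaller for most of the genes named above. Of 3653 genes measured in both normal libraries, 20 were at least 1.5-fold higher in both (0.547%) and 349 lower (9.55%). In normal WT alone 245 of 3692 were higher (6.64%) and 967 lower (26.2%), and in normal Rab37 KO 216 of 4792 (4.51%) and 1209 (25.2%). Cxcl3 was at 573 and 1064 CPM in normal WT and 521 and 827 CPM in normal Rab37 KO, ratios of 1.86 and 1.59 where the tumor libraries had 10.8 and 5.33. Il1rn had ratios of 2.51 and 1.66, and Cxcl2 of 1.47 and 1.42. Pfkp (1.03 and 0.944), Arid5b (1.05 and 1.251) and Upp1 (0.766 and 1.26) were near 1 in normal lung, and Hilpda (3.06 and 1.88) was not. Neutrophils of both normal libraries held Xist and Y-linked UMIs. In normal WT these were 14 and 79 past the limit and 92 and 75 below it. In normal Rab37 KO they were 35 and 106 past it and 113 and 302 below it. Sex was therefore not held across the limit in normal lung, and its part in these ratios was not tested. The difference between tumor and normal lung in these ratios was not tested, since each is from 1 library.

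Against all neutrophils of normal lung of the same genotype, the chemokine-high tumor neutrophils held more of Wfdc17, Ifitm1, Igfbp6 and Cxcl3 and of most genes of glycolysis. They held less Cxcr4 and Lyz2, and less MHC class II, whose direction turned under other limits of the rule. The comparison asks how these cells differ from neutrophils of lung without tumor. Of 3870 genes measured in both genotypes, 340 were at least 1.5-fold higher in both (8.79%) and 499 lower (12.9%), 186 and 264 of them with intervals excluding 1 in both. The median log2 ratio over all genes was -0.04 and -0.05. In WT alone 837 of 3872 genes were higher (21.6%) and 1182 lower (30.5%), and in Rab37 KO 1433 of 6885 (20.8%) and 1572 (22.8%). Tumor and normal libraries were processed with different software versions. The chemokine-high cells held 13 Xist and 0 Y-linked UMIs in the WT tumor and 0 and 529 in the Rab37 KO tumor. Neutrophils of both normal libraries held UMIs of both kinds. Software version, animal and sex cannot be told apart from the tissue.

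Against only the normal neutrophils past the same limit, 228 of 2251 genes were higher in both genotypes (10.1%) and 289 lower (12.8%). The single genotypes had 481 of 2253 higher (21.3%) and 683 lower (30.3%) in WT, and 1906 of 6034 higher (31.6%) and 929 lower (15.4%) in Rab37 KO. Of the genes with large ratios, some differed little across the chemokine limit within the tumors, and others, Cxcl3 and Fam162a among them, were also higher past it. Wfdc17, a small protein with a WAP domain, was at 590 and 743 CPM in the cells past the limit of normal WT and normal Rab37 KO and at 10990 and 9111 CPM in those of the tumors. Its ratios over all normal neutrophils were 20.4 (18.4 to 22.6) and 13.8 (13.1 to 14.7). Below the limit the tumor neutrophils held 13180 and 9529 CPM of Wfdc17, no less than the chemokine-high ones. Ifitm1, an interferon-induced membrane protein, had ratios of 6.97 and 6.79, with 8422 and 8117 CPM in the chemokine-high cells and 10317 and 9190 CPM below the limit. Igfbp6, a binding protein of insulin-like growth factor, had 35.5 (19.5 to 68.4) and 15.02 (10.7 to 21.8), with 497 and 277 CPM, and 544 and 322 CPM below the limit. These 3 genes therefore marked tumor neutrophils on either side of the limit.

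Glycolysis and low-oxygen genes were higher than in normal lung across nearly the whole list. Of 29 members measured in both genotypes 25 were higher in both and 0 lower, against 8.79% and 12.9% over all genes. The list's median log2 ratio was 1.33 in WT and 1.69 in Rab37 KO, against -0.04 and -0.05 over all genes, and its summed level was 12617 against 5181 CPM and 14404 against 5647 CPM. Against only those normal neutrophils that also met the chemokine limit 22 of 26 were higher in both. Without foreign transcripts, against all normal neutrophils, 20 of 26 were higher in both and 1 lower. The glycolytic direction was thus met in both genotypes and with either set of normal neutrophils. It was not particular to the chemokine-high cells. Without foreign transcripts the list summed to 12054 CPM in them and 8952 CPM below the limit in the WT tumor. In the Rab37 KO tumor these sums were 14747 and 10332 CPM. The sums below the limit also lay above those of normal lung given above, which include all cells.

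Single members show its size. Mif, macrophage migration inhibitory factor, was at 44.8 and 54.8 CPM in normal cells past the limit and 803 and 869 CPM in the tumor ones, ratios over all normal neutrophils of 10.4 and 12.3. Tpi1, triosephosphate isomerase, had ratios of 10.1 and 8.51, Bnip3, a mitochondrial protein induced by low oxygen, 8.40 and 10.3, and Ldha, lactate dehydrogenase A, 4.51 and 4.58. Fam162a, another low-oxygen gene outside the list, had 17.4 (8.69 to 35.9) and 20.1 (13.5 to 31.3). Hk2, hexokinase 2, had 14.6 and 6.196, and 1 cell held 46.9% of its UMIs in the WT tumor. Slc2a1, the glucose transporter GLUT1, had the smaller ratios of 1.89 and 2.37.

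Cxcl3 combined both patterns. It was 8.84-fold higher (7.96 to 9.81) than in normal neutrophils in WT and 13.7-fold (12.9 to 14.6) in Rab37 KO, and 6.37-fold and 10.3-fold higher than in normal cells past the same limit. Hilpda had 5.90 and 6.90, and 3.49 and 4.76 against the normal cells past the limit. Both were therefore higher in tumor than in normal neutrophils at a like level of Ccl3 and Ccl4. Steap4, a metalloreductase, had 10.0 and 11.7, at 159 and 235 CPM, and was at 176 and 235 CPM below the limit. Xbp1, a transcription factor of the unfolded protein response, had 3.64 and 4.86, and Bcl2l1, which encodes the survival protein BCL-XL, 3.78 and 4.02.

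Lower than in normal lung was Cxcr4, the receptor that holds neutrophils in the bone marrow, 4.48-fold in WT and 2.80-fold in Rab37 KO. It was at 201 and 334 CPM in the chemokine-high tumor cells, against 962 and 914 CPM in the normal cells past the same limit. Lyz2 was 3.27-fold and 4.12-fold lower, and Limd2 4.25-fold and 4.33-fold. H2-Eb1, an MHC class II chain, had 0 UMIs in the WT tumor, at least 4.44-fold lower, and was 3.55-fold lower in the Rab37 KO tumor. With the chemokine limit at 0.5%, the log2 ratio of H2-Eb1 in WT was 1.08 and the median of the MHC class II list 0.75, and with 10% neutrophil transcripts they were 0.57 and 0.95 in Rab37 KO, all in the opposite direction. Cybb, the catalytic chain of the NADPH oxidase, also had 0 UMIs in the WT tumor, at least 6.23-fold lower, and was 3.35-fold lower in the Rab37 KO tumor. Macrophage markers summed to 307 and 613 CPM here and to 674 and 1003 CPM in normal lung, and B cell markers to 0 and 38.2 CPM against 299 and 825 CPM. Without foreign transcripts 2 of 4 MHC class II genes were lower in both genotypes and 0 higher. The part of other cells in the lower H2-Eb1 and Lyz2 was not tested beyond this.

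**Figure D4:**
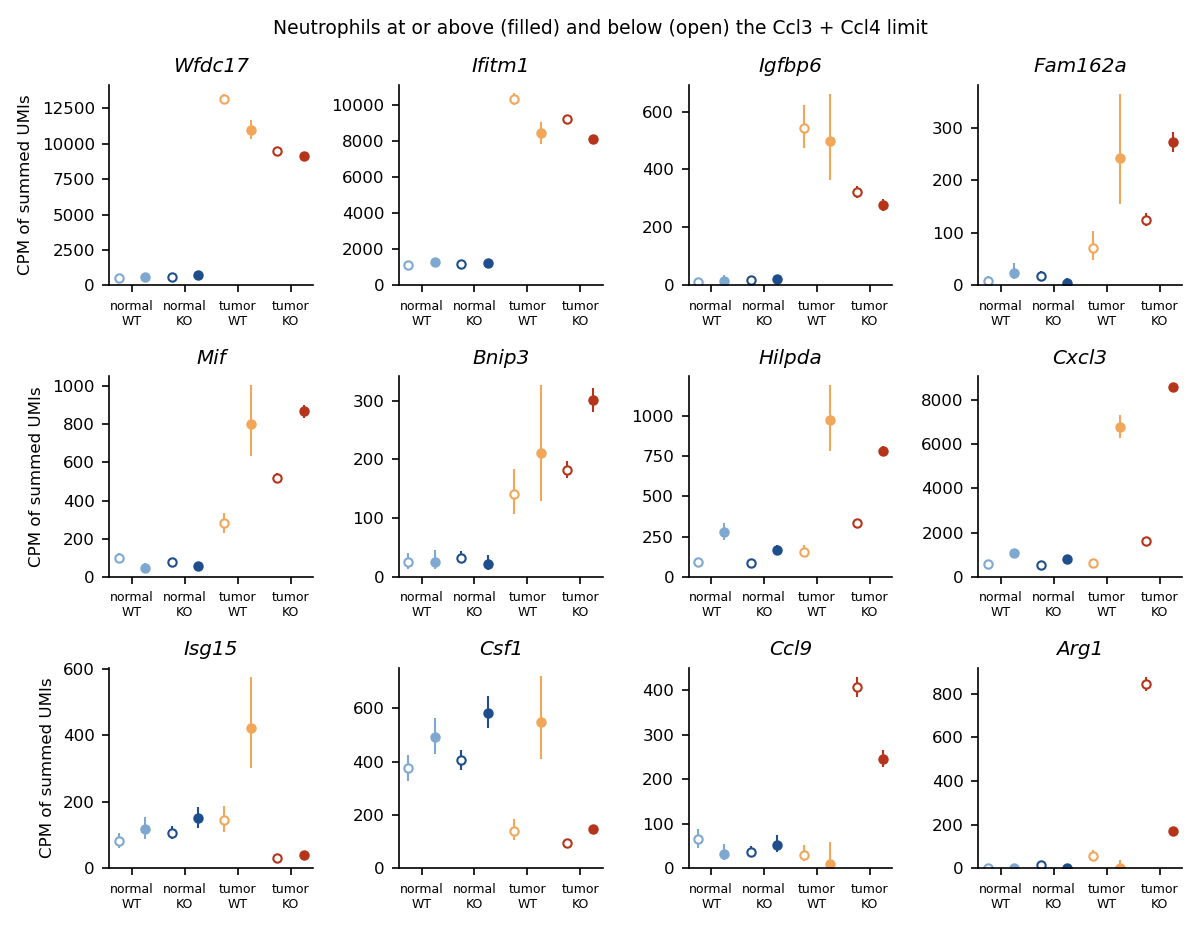
Level (CPM of summed UMIs, with 95% counting intervals) of 12 genes in neutrophils below the limit (open) and at or above it (filled) in the 4 libraries. Wfdc17, Ifitm1 and Igfbp6 are high in tumor neutrophils on both sides of the limit, with Wfdc17 at 13180 and 10990 CPM in the WT tumor, while Cxcl3 and Hilpda are highest in the chemokine-high tumor cells.

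Between the genotypes, the chemokine-high neutrophils of the Rab37 KO tumor held more Ccl9, Ccl6, Spp1 and Arg1 than those of the WT tumor, and less Isg15 and Csf1. The Arg1 difference was not shown without foreign transcripts. Ccl9 was found after thinning in B cells of the Rab37 KO tumor as often as in its chemokine-high cells. Levels of Il1b, Cxcl2 and Cxcl3 lay close together. The comparison asks what loss of Rab37 goes with in these cells, and it sets 478 cells of 1 library against 37 cells of another. Past 1.5-fold, 992 of 5719 genes were higher in Rab37 KO cells (17.3%) and 1178 lower (20.6%), but intervals excluded 1 for only 191 and 211. Below the limit 1569 of 7146 genes were higher (22.0%) and 1052 lower (14.7%), 539 and 381 with intervals excluding 1. The median log2 ratio was 0.00 in the chemokine-high cells and 0.05 below the limit.

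The genes that chose the cells were slightly higher in Rab37 KO. Ccl3 had a ratio of 1.26 (1.18 to 1.36) and Ccl4 of 1.253 (1.18 to 1.33). Ccl6 was at 1701 CPM in the WT tumor and 3401 CPM in the Rab37 KO tumor, a ratio of 2.00 (1.71 to 2.35), and 2.07 below the limit. Ccl9, a related CC chemokine, had 1 UMI in the WT tumor (10.6 CPM) and was at 246 CPM in the Rab37 KO tumor, a ratio of 23.3 with a wide interval (4.17 to 921). Below the limit Ccl9 was at 29.8 and 406 CPM, a ratio of 13.6 (7.78 to 26.4), so the difference was also met on that side. A Ccl9 UMI was found after thinning in 12.8% of the chemokine-high cells and 12.8% of the B cells of the Rab37 KO tumor. In the WT tumor the shares were 2.78% and 1.64%, and the part of free RNA in the Ccl9 difference was not tested. Of 9 CC chemokines 3 were higher and 0 lower, and of 6 CXC chemokines 4 were higher and 0 lower. Over all genes 17.3% were higher and 20.6% lower. Without foreign transcripts 3 of 6 CC chemokines were higher, while 0 of 4 CXC chemokines were higher or lower, with a median log2 ratio of 0.10.

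Spp1 was at 518 and 1677 CPM, a ratio of 3.24 (2.45 to 4.38), and 3.31 below the limit. Arg1, the arginase of myeloid cells, had 0 UMIs in the WT tumor and 170 CPM in the Rab37 KO tumor, in 82 cells, at least 5.38-fold higher, and below the limit it was at 57.1 and 843 CPM. Macrophage markers were also higher in Rab37 KO, at 307 and 613 CPM in the chemokine-high cells and 1423 and 2892 CPM below the limit. Without foreign transcripts 30 Arg1 UMIs were left in 264 cells of the Rab37 KO tumor and 0 in 31 cells of the WT tumor. With so few WT cells these Arg1 counts do not show a difference. The ratio of Spp1 was then 7.88 (4.84 to 13.8). Pf4, the platelet factor, had 1 UMI in the WT tumor and a ratio of 15.97 (2.85 to 632), and 1 cell held 50.2% of its UMIs in the Rab37 KO tumor. A Pf4 UMI was found after thinning in 6.32% of the chemokine-high cells of the Rab37 KO tumor and in 19.2% of its B cells. Tnf had 2.06 (1.14 to 4.14) and 2.14 below the limit.

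Isg15, an interferon-induced ubiquitin-like protein, was at 423 CPM in the WT tumor and 40.3 CPM in the Rab37 KO tumor, 10.5-fold lower, with a ratio of 0.0953 (0.0659 to 0.140). The WT value of Isg15 came from 9 of 37 cells, of which 1 held 30.0%, and the ratio below the limit was 0.214. Csf1 was at 549 and 148 CPM, 3.70-fold lower, with 38.5% of the WT UMIs in 1 of 12 cells, and had a ratio of 0.672 below the limit. Tnfaip3, which encodes the NF-kB inhibitor A20, had 0.426, but 1.46 below the limit, and with the chemokine limit at 2% its log2 ratio was 2.15, the opposite direction. Isg15 and Csf1 kept their direction on both sides of the limit and Tnfaip3 did not.

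The gene lists did not share a direction between the genotypes. Over all genes 17.3% were higher and 20.6% lower in the chemokine-high cells of Rab37 KO, and 22.0% and 14.7% below the limit. The counts of the lists are to be read against these shares. The hypoxia and glycolysis list had a median log2 ratio of 0.34, with 7 of 31 genes higher in Rab37 KO and 2 lower, and below the limit 12 of 32 were higher and 0 lower. Of 24 tumor neutrophil genes 3 were higher and 4 lower, with a median of -0.17, while below the limit 12 of 25 were higher and 0 lower. Of 20 Rab and exocytosis genes 2 were higher and 0 lower, with a median of 0.10. Cxcl3 had a ratio of 1.26, Cxcl2 of 0.929 and Il1b of 1.03, all within 1.5-fold. Whether the genotypes differ beyond the spread between animals could not be tested with 1 library each.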

How the data were processed

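Single-cell RNA of 4 libraries, 1 per group, had been prepared with the 10x Chromium 3′ v2 kit, per the labels' protocols. The values deposited are UMI counts, not normalized, of 31053 features in each barcode. They rest on mm10, as the submitters' processing notes list it, and the software version was 3.0.1 for normal and 3.1.0 for tumor libraries, per the file headers. No source used here names the aligner. The lowest barcode held 500 UMIs, which points to a selection of barcodes before deposit.

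Of 14396 barcodes, those with fewer than 200 genes (75, 105, 15 and 111 in normal WT, normal Rab37 KO, the WT tumor and the Rab37 KO tumor) and those over 10% mitochondrial UMIs (314, 268, 14 and 259) were left out, and doublets called by Scrublet were kept, with their removal as an alternative. No clustering was used. UMIs were summed over the cells of a group and given as CPM with exact Poisson intervals, ratios with conditional binomial intervals and shares with Clopper-Pearson intervals (95%). With 1 library per group no test was made, and cells were not used as replicates. A gene was measured with 20 UMIs over both groups and was counted as higher or lower from 1.5-fold, and a count of 0 entered by a floor of 3 counts per group. Of 539 genes of lists and named genes, 539 identifiers matched GENCODE vM21.

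Shares of cells with a UMI were taken after thinning to 1000 UMIs, beside B cells with at least 3 UMIs of B cell markers and under 1% neutrophil transcripts. The cells, the 23 pathway lists and the 14 marker lists were chosen with earlier results of these data known. Named were the genes of the rule, the chemokine, cytokine and CCL3 and CCL4 receptor lists, up to 4 members of each other list with the largest ratio and at least 50 CPM, the 12 genes each way of largest ratio with at least 20 UMIs, 100 CPM and an interval excluding 1, and the 8 genes most alike by correlation. Outside this rule, Ly6g, Siglecf, Slc2a1, Ldha, Tmsb4x and Actb were named after their values were seen. There were 13 alternatives, and 2 added after seeing the data. The scripts were tested on simulated data. Analysis used Python 3.11.15, numpy 2.4.6, scipy 1.17.1, pandas 2.3.3, scanpy 1.11.5 and matplotlib 3.10.9. A few results are not reported here.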

Additional observations from a re-analysis of the deposited data

Results flagged for a closer look

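Several genes had ratios on opposite sides of 1 in comparisons set side by side, with counting intervals that excluded 1 in both. In each case the difference was not tested, since each ratio comes from single libraries. Cd177, a surface protein of neutrophil granules, was lower in the chemokine-high cells than below the limit in the WT tumor, with a ratio of 0.311 (0.0617 to 0.976, from 3 UMIs), and higher in the Rab37 KO tumor, with 1.99 (1.68 to 2.37). Psap, which encodes prosaposin of lysosomes, had 1.84 (1.36 to 2.48) in the WT tumor and 0.403 (0.369 to 0.440) in the Rab37 KO tumor.

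Between the genotypes, 6 genes had opposite directions in the chemokine-high cells and below the limit. The Rab37 KO over WT ratio of Cd177 was 4.16 (1.41 to 20.3) in chemokine-high cells and 0.651 (0.464 to 0.933) below the limit. That of Il1rn was 0.643 (0.548 to 0.761) and 1.67 (1.32 to 2.13), and that of Psap 0.358 (0.278 to 0.469) and 1.64 (1.39 to 1.95). Of the MHC class II genes, Cd74 had 12.6 (3.48 to 104) and 0.512 (0.465 to 0.564), H2-Aa 9.01 (1.60 to 357) and 0.321 (0.275 to 0.376), and H2-Eb1 at least 2.84 and 0.369 (0.317 to 0.431). B cell markers in the WT tumor summed to 0 CPM in the chemokine-high cells and 89.4 CPM below the limit, and their part in the MHC class II values was not tested.

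Isg15 was higher in the chemokine-high cells than in normal neutrophils in WT, with a ratio of 4.41 (2.98 to 6.405), and lower in Rab37 KO, with 0.330 (0.261 to 0.415).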

How the results depend on the processing

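Every group has 1 library, and the WT tumor gave 37 cells with 94632 UMIs, so ratios of genes under about 200 CPM there rest on few UMIs. No paired analysis was possible because each group has 1 library. The number and share of cells moved with the limits. At 0.5% of Ccl3 and Ccl4, the WT tumor had 61 cells (38.9% of neutrophils) and the Rab37 KO tumor a share of 67.0%; at 2%, the WT tumor had 10 (6.37%) and the Rab37 KO tumor 270 (27.5%). With 10% neutrophil transcripts the Rab37 KO tumor had 272 cells (44.5%), and without foreign transcripts 264. Counts of genes below are set against 86 and 323 higher and lower than below the limit, 992 and 1178 between genotypes and 340 and 499 against normal lung. Those lower than below the limit were 148 at 0.5%, 661 and 54 at 2.5% and 10% neutrophil transcripts, 121 without foreign transcripts, 160 with at least 50 UMIs and 565 with 1 UMI. Those higher were 49 with 50 UMIs and 209 with 1 UMI. Between genotypes 379 were higher at 2%, and 680 and 2100 were lower with 50 and 1 UMIs. Against normal lung 301 were lower at 2%, 307 at 10% neutrophil transcripts and 289 against normal cells past the same limit (an alternative chosen after seeing the data), and 174 and 861 were higher with 50 and 1 UMIs. Scaling to UMIs outside the rule's genes gave 91 and 315, 924 and 1252, and 344 and 493. Alternatives with too few UMIs for a gene gave no value.

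Directions reversed as follows, in log2 ratios, and the cause was not tested. At 0.5%, Crip1 was 0.48 in the WT tumor and Saa3 0.81 in the Rab37 KO tumor, Cd74 was -1.52 and MHC class II genes -1.61 between genotypes, and H2-Eb1 was 1.08, MHC class II 0.75 and MHC class I 0.17 against normal lung in WT. At 2%, Tnfaip3 was 2.15 and the CXC chemokines -0.0033 between genotypes. With 2.5% neutrophil transcripts Spp1 was -1.45 in the WT tumor. With 10%, in the Rab37 KO tumor, S100a4 was 0.88, S100a10 1.04, Chil3 0.84, Prdx1 0.17, Tmsb10 0.23, Ms4a6c 0.27, heat shock 0.071 and MHC class II 1.53, and against normal lung H2-Eb1 was 0.57, heat shock 0.20 and MHC class II 0.95. Without foreign transcripts Tmsb10 was 0.26 in the WT tumor, and in the Rab37 KO tumor Tmsb10 and S100a4 were 0.063, S100a10 1.23, Chil3 0.55, Prdx1 0.51, Apoe 0.049, Saa3 1.90, Crip1 0.90, heat shock 0.19 (0.45 against normal lung) and MHC class II 0.87.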
